A study of Mus musculus with 6 samples.

Results

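Mitochondrial ribosomal protein genes were taken as all genes of the raw exon count table whose symbol starts with Mrpl or Mrps followed by a digit, pseudogene symbols left out. The rule gave 76 of the 39017 genes in the table, 47 named Mrpl for the large subunit and 29 named Mrps for the small subunit, and it left out 4 symbols with the suffix -ps. The rule reads symbols and no measured value, but the family was taken up with earlier results of these data known. RNA-seq had been done on induced germinal centre B cells (iGBs), which are splenic B cells of C57BL6/J mice grown on irradiated 40LB feeder cells that supply CD40L and BAFF, with IL-4, for 3.5 days. The Control group held 3 Cg1-cre mice and the Prmt1-null group 3 Cg1-cre Prmt1f/f mice, with 1 library per mouse and 1 male in each group. All 6 mice carried the cre, which is driven from the germline Cγ1 locus and acts only after activation, so that deletion took place during the culture. IL-4 is given as 5 ng/ml in the sample labels, and the study's methods give a lower concentration. Feeder cells were depleted by an antibody to their H2K before RNA was extracted, and total RNA was depleted of rRNA.

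The mitochondrial ribosome is built from 2 rRNAs encoded in the mitochondrial genome (mt-Rnr1 and mt-Rnr2) and from proteins that are all encoded in the nucleus, made in the cytosol and imported. It translates the 13 protein-coding genes of the mitochondrial genome, whose products are core subunits of the respiratory chain and ATP synthase. Part of its proteins have bacterial homologues, and the others are found only in mitochondria. Activated B cells remodel their mitochondria as they grow and divide, and the arginine methyltransferase PRMT1 is best known for dimethylating RNA-binding proteins and histone H4.

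Most mitochondrial ribosomal protein genes had slightly higher fitted levels in Prmt1-null than in Control iGBs, and 0 of the 76 passed the test for a single gene. The fitted fold change was above 0 for 64 of 76 members, against 49.9% of all 18268 genes tested. All 76 members were measured in the same 6 libraries, so counts of members, here and below, are not counts of independent observations. The median log2 fold change was 0.075 for the 47 Mrpl genes and 0.114 for the 29 Mrps genes, and it was −0.001 over all genes tested. The difference between the subunits was not tested, and without members whose exons overlap another gene the medians were 0.093 and 0.09. Fold changes of the members ran from −0.24 (Mrps21) to 0.42 (Mrps24).

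As a check of the labels, Prmt1 was counted first. Its normalized counts (raw counts divided by a library's size factor) were 3941, 3901 and 4809 in Control iGBs and 1734, 1469 and 1469 in Prmt1-null iGBs, a log2 fold change of −1.44 (SE 0.095, edgeR adjusted p = 1.11e-05). The libraries held 45343250 to 62774232 counts each, and raw counts of the members ran from 69 (Mrps12) to 6514 (Mrps25), so that all 76 passed the filter on low counts. Summed levels of 6 B cell markers were 5970 to 6340 CPM (counts scaled to a library's size) in Control and 6320 to 6650 in Prmt1-null libraries, with 4 of 6 genes above 0 and 2 at an unadjusted p under 0.05. Those of 5 germinal centre B cell markers were 574 to 611 and 600 to 663 CPM, with genes on both sides of 0 (3 of 5 above, and 1 higher and 1 lower at an unadjusted p under 0.05). The 4 plasma cell markers found in the table summed to 822 to 903 CPM in Control and 957 to 1040 in Prmt1-null libraries, with 4 of 4 above 0, 2 at an unadjusted p under 0.05 and 0 called by edgeR (1, Xbp1, by DESeq2 and by limma-voom). Fibroblast markers, which stand for remaining 40LB cells, summed to 27.1 to 31.2 CPM and 29.5 to 38.5 CPM (6 of 7 tested, 6 above 0, 2 at an unadjusted p under 0.05, 0 called by edgeR or DESeq2, Postn at 0 counts). Markers of T cells (at most 2.3 CPM), myeloid cells (at most 5.59 CPM) and erythroid cells (at most 9.68 CPM) were low in all libraries. The sums of B cell, germinal centre B cell, plasma cell and fibroblast markers ran higher in Prmt1-null libraries, as the members did. The groups did not overlap for the plasma cell sum and overlapped for the other sums. The part of these cell types in the members' result was not tested. In bulk RNA, a change in the share of cells of a type and a change in RNA per cell cannot be told apart.

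The sequences before the start sites of 4 members are shown because these carry the single-gene results: Mrpl17, Mrpl9 and Mrps24 are the members called by DESeq2 or without the filter on low counts, and Mrps21 is the member with the lowest fold change. Promoter windows (250 bases before to 50 after the start, RefSeq, GRCm38.p6) were found for 67 of the 76 members, in 73 windows because some genes have several starts. No window was matched for Mrpl4, Mrpl13, Mrpl15, Mrpl19, Mrpl38, Mrpl54, Mrps28, Mrps34 and Mrps35. The last 120 bases before the RefSeq start are printed 5′ to 3′ on the gene's strand, at chr7:105811088-105811207 (minus strand) for Mrpl17, chr3:94443216-94443335 (plus strand) for Mrpl9, chr11:5707702-5707821 (minus strand) for Mrps24 and chr3:95871515-95871634 (minus strand) for Mrps21. Capitals mark matches to GCGCANGCG or its reverse complement, the core of the motif of NRF1 (nuclear respiratory factor 1), a factor known for nuclear genes of mitochondrial proteins.
Mrpl17: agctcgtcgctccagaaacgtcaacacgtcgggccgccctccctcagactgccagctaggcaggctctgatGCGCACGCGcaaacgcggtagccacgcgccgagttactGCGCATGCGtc
Mrpl9: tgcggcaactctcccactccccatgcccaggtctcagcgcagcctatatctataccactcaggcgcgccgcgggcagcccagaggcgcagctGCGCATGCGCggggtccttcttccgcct
Mrps24: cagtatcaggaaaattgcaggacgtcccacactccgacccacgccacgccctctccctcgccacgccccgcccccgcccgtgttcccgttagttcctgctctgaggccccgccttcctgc
Mrps21: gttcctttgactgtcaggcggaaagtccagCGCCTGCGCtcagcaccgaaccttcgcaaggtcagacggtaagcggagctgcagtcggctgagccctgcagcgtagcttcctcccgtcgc

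Mrpl17 has NRF1 letters 49 and 11 bases before the start, Mrpl9 has a self-complementary pair of matches that overlap at 28 and 27 bases, and Mrps21 has a match on the other strand 90 bases before the start. Mrps24 has no match in the bases shown. The motif thus stands before members at the upper and at the lower end of the fold changes. Over whole windows and both strands, the NRF1 letters were in 20.5% of the 73 member windows, 12.3% of the 13041 windows of tested genes and 6.25% of all 32851 windows. The letters CCGGAAG, bound by GABP and other ETS factors, were in 32.9%, 16.5% and 8.86%, and AAGATGGCG (YY1) was in 11.0%, 2.75% and 1.4%. An E-box, CACGTG, the site of MYC and MAX, was in 9.59%, 9.55% and 7.15%, and CCAAT, bound by NF-Y, in 41.1%, 37.6% and 37.4%. The median log2 fold change of members with and without the letters is given as a description, with no test. It was 0.08 for 15 genes with the NRF1 letters against 0.09 for 52 without, 0.11 for 24 against 0.08 for 43 for CCGGAAG and 0.09 for 8 against 0.08 for 59 for AAGATGGCG. For CACGTG it was 0.08 for 5 against 0.09 for 62, and for CCAAT it was 0.07 for 27 against 0.13 for 40. Fold changes of the factors themselves, in a list of 10 that holds Nrf1, Gabpa, Yy1, Myc and coactivators of the PGC-1 family, had a median of 0.027 with 9 of 10 above 0, 2 higher without overlap of the groups (9.95% of all genes tested were), 0 called by edgeR or DESeq2 and 0 at an unadjusted p under 0.05, and Myc was at 6065 ± 540.0 normalized counts in Control iGBs and 6184 ± 246 in Prmt1-null libraries (SD, n = 3).

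Each gene was tested with edgeR's quasi-likelihood test, and a call needed a Benjamini-Hochberg adjusted p under 0.05 over all genes tested and a mean normalized count over 100. By this rule 0 of 76 members were called, against 1.18% of all genes tested, and the smallest adjusted p among the members was 0.139 (Mrpl17). DESeq2 called 3 members, Mrpl9, Mrpl17 and Mrps24, where it called 4.08% of all genes. Without the filter on low counts edgeR called Mrpl17 and Mrps24, where it called 2.63% of the 25707 genes then tested. limma-voom called 0 members, with 13 higher and 1 lower at an unadjusted p under 0.05. At an unadjusted p under 0.05, 12 members were higher in Prmt1-null iGBs (6.5% of all genes tested were) and 1 was lower (7.0% of all genes tested were). Of the 12, 8 were Mrpl genes and 4 were Mrps genes, and the gene that was lower was Mrps21. Their number was 6 without Prmt1-null replicate 3 and 7 without Prmt1-null replicate 2, and it was 9 to 12 without any other library.

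**Figure D1:**
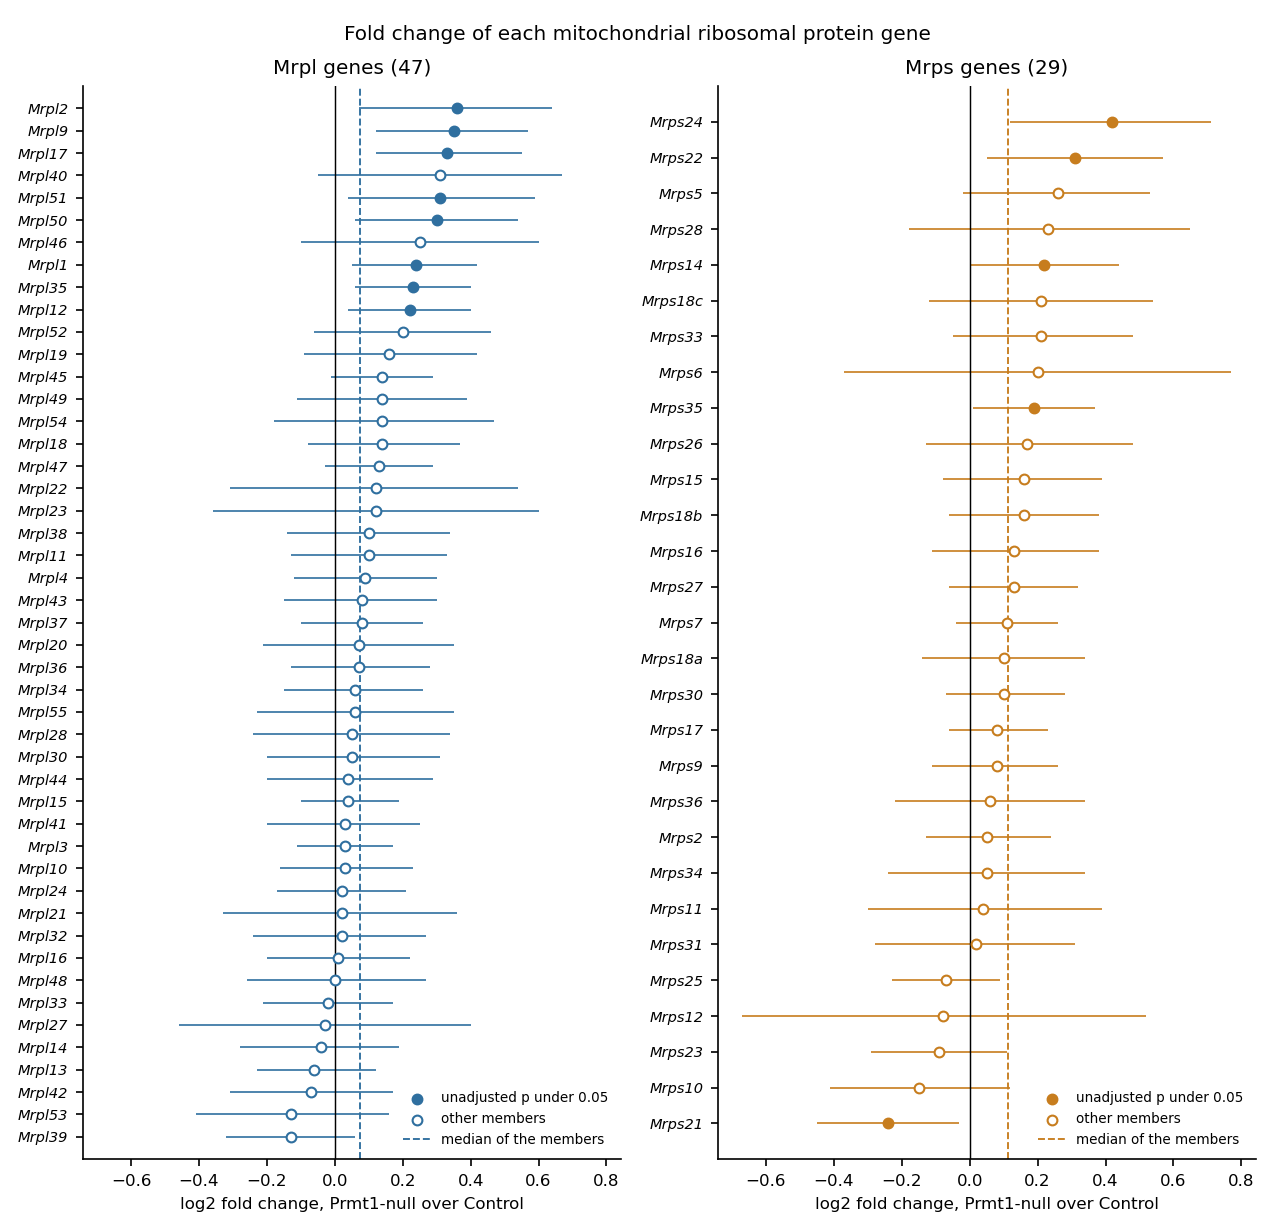
Log2 fold change of each member, Prmt1-null over Control, with its 95% confidence interval from edgeR, for the 47 Mrpl genes and the 29 Mrps genes. Filled points have an unadjusted p under 0.05 (12 higher, 1 lower), the dashed lines are the medians of 0.075 and 0.114, and 64 of 76 points lie above 0.

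The libraries gave the same picture without a model. In 20 members (26.3%) all 3 Prmt1-null libraries lay above all 3 Control libraries, against 9.95% of all genes tested. In 1 member (1.32%), Mrps21, they lay below, against 9.92% of all genes. By subunit, 10 of 47 Mrpl genes and 10 of 29 Mrps genes were higher without overlap. The 95% interval of the fold change lay within 1.4-fold of no change for 60 of the 76 members, 16 intervals reached past 1.4-fold in the upward direction, 1 of these (Mrps12) also in the downward direction, and 0 members had a fitted change over 1.4-fold. The members' standard errors were smaller than those of other genes, with a median of 0.111 against 0.142, and this bears on the share of members at a small unadjusted p.

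Among the large subunit proteins with a bacterial homologue, 6 of 29 genes (20.7%) had an unadjusted p under 0.05, where 13.5% of all genes tested did. All of these were higher in Prmt1-null iGBs, where 6.5% of all genes tested were higher at that p. Mrpl17 (bL17m) had 1501, 1407 and 1246 normalized counts in Control iGBs and 1857, 1576 and 1799 in Prmt1-null libraries. Mrpl9 (bL9m) had 911.8, 1099 and 987 in Control and 1243, 1361 and 1209 in Prmt1-null libraries. In both genes the groups did not overlap, and the log2 fold changes were 0.33 (SE 0.1) and 0.35 (SE 0.106), with edgeR adjusted p-values of 0.139 and 0.143. Exons of Mrpl9 overlap Oaz3 on the other strand. Mrpl2 (uL2m), which lies next to the peptidyl transferase centre, had 353.8, 419.8 and 421.6 normalized counts in Control iGBs and 521.3, 476.5 and 537.4 in Prmt1-null libraries, a log2 fold change of 0.36 (SE 0.133, edgeR adjusted p = 0.232) without overlap of the groups.

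Mrpl35 (bL35m) and Mrpl12 (bL12m, a protein of the flexible stalk that recruits translation factors) had smaller differences with a smaller spread. Normalized counts of Mrpl35 were 1832, 1745 and 1873 in Control and 2140, 2234 and 2035 in Prmt1-null libraries, a log2 fold change of 0.23 (SE 0.0788, edgeR adjusted p = 0.19). Those of Mrpl12 were 1938, 1912 and 2093 against 2112, 2516 and 2278, a difference of 0.22 on the log2 scale (SE 0.0847, edgeR adjusted p = 0.262), with the highest Control and the lowest Prmt1-null library close together. Mrpl1 (uL1m), the protein of the mobile stalk at the exit site for tRNA, had 2716, 2444 and 2198 normalized counts in Control iGBs and 2649, 2971 and 3049 in Prmt1-null libraries. Here 1 Control library lay above the lowest Prmt1-null library, and the log2 fold change was 0.24 (SE 0.0866, edgeR adjusted p = 0.227).

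Of the 20 large subunit proteins without a bacterial homologue, Mrpl50 and Mrpl51 had an unadjusted p under 0.05. Normalized counts of Mrpl50 (mL50) were 875.5, 946 and 939.6 in Control and 979.2, 1190 and 1236 in Prmt1-null libraries. Those of Mrpl51 (mL51) were 444.4, 458.2 and 522.4 against 593.8, 537.9 and 638. The groups did not overlap in either gene, and the log2 fold changes were 0.30 (SE 0.112, edgeR adjusted p = 0.234) and 0.31 (SE 0.128, edgeR adjusted p = 0.29). Mrpl51 has a processed pseudogene, Gm14017, of 98.5% identity over 387 bases, and with the copy's counts added its log2 fold change was 0.30. At the other end of the large subunit, Mrpl39 (mL39), related in sequence to threonyl-tRNA synthetases, had 2159, 1815 and 1934 normalized counts in Control iGBs and 1687, 1819 and 1894 in Prmt1-null libraries, with overlap and a log2 fold change of −0.13 (95% interval −0.32 to 0.06).

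**Figure D2:**
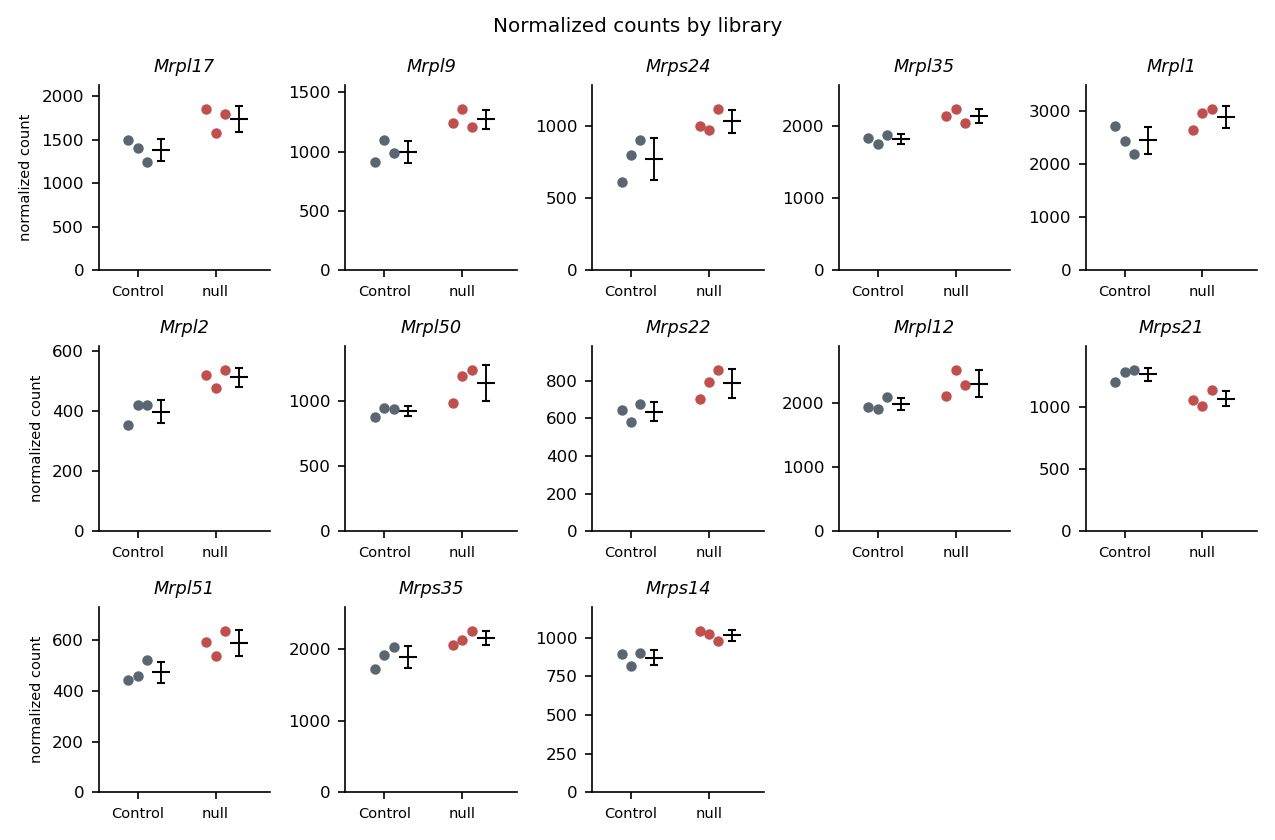
Normalized count in each library, from 0, for the 13 members with an unadjusted p under 0.05, in order of that p; grey points are the 3 Control and red points the 3 Prmt1-null libraries, and black bars are the mean and SD. The groups do not overlap in 12 of the 13 genes, Mrpl1 being the exception, and Mrps21 is the gene with lower Prmt1-null counts.

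In the small subunit, the largest difference was that of Mrps24 (uS3m), a protein of the mRNA entry channel in bacteria. It had 613.5, 796.7 and 903.5 normalized counts in Control iGBs and 1001, 971.3 and 1118 in Prmt1-null libraries, with no overlap, a wide spread among Control libraries, and a log2 fold change of 0.42 (SE 0.136, edgeR adjusted p = 0.173). Exons of Mrps24 overlap Urgcp on the same strand, so reads of the shared part could belong to either gene. Without Control replicate 1, the library with the lowest count, the log2 fold change was at its lowest, 0.28. Mrps14 (uS14m), named after its values were seen, had 897.3, 815.1 and 899.1 against 1046, 1023 and 979 normalized counts, with no overlap and a log2 fold change of 0.22 (SE 0.102, edgeR adjusted p = 0.359).

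Of the 12 members with a fitted change below 0, Mrps21 (bS21m) was the 1 with an unadjusted p under 0.05. Its normalized counts were 1205, 1284 and 1300 in Control and 1058, 1010 and 1134 in Prmt1-null libraries, so every Prmt1-null library lay below every Control library. The log2 fold change was −0.24 (SE 0.0974, 95% interval −0.45 to −0.03, edgeR adjusted p = 0.279), and it stayed between −0.29 and −0.20 when each library was left out in turn. Mrps21 has a processed pseudogene, Gm6181, with 97.3% identity over 264 bases, which had a log2 fold change of 0.01, and with its counts added that of Mrps21 was −0.21.

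Mrps22 (mS22) and Mrps35 (mS35), small subunit proteins found only in mitochondria, had an unadjusted p under 0.05. Normalized counts of Mrps22 were 646.1, 578.6 and 676.8 in Control and 703.5, 795.3 and 857.8 in Prmt1-null libraries, a log2 fold change of 0.31 (SE 0.121, edgeR adjusted p = 0.259). For Mrps35 they were 1725, 1917 and 2029 against 2066, 2133 and 2259, a log2 fold change of 0.19 (SE 0.0846, edgeR adjusted p = 0.35). In both genes the lowest Prmt1-null library lay just above the highest Control library. Mrps25 (mS25), named after its values were seen as the member with the most counts, had 6432, 5454 and 5612 against 5256, 5969 and 5422 normalized counts, with overlap and a log2 fold change of −0.07 (95% interval −0.23 to 0.09).

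The symbol and the place in the ribosome differ for 3 members. Mrps18a (mL66) and Mrps30 (mL65) are named for the small subunit and sit in the large subunit, and Mrps36 is now counted as a subunit of the alpha-ketoglutarate dehydrogenase complex. Their log2 fold changes were 0.10 (95% interval −0.14 to 0.34), 0.10 (−0.07 to 0.28) and 0.06 (−0.22 to 0.34). All 3 Prmt1-null libraries lay above the Control libraries for Mrps30, with 2723, 2713 and 2729 against 2689, 2236 and 2679 normalized counts, and the groups overlapped for the other two. Without Control replicate 2, the low library, the log2 fold change of Mrps30 was 0.02. With genes placed by structure, the median log2 fold change was 0.081 for 49 large subunit genes and 0.132 for 26 small subunit genes.

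Placed by descent, the medians were 0.068 for 29 large subunit proteins with a bacterial homologue and 0.097 for 20 without, and 0.124 for 16 small subunit proteins with a bacterial homologue and 0.143 for 10 without. The 4 classes had 25 of 29, 17 of 20, 13 of 16 and 8 of 10 genes above 0, where 49.9% of all genes were. Of 6 proteins of the mitochondrial ribosome whose symbols do not start with Mrp, 5 were above 0 and 0 were called by edgeR or DESeq2, with a median of 0.165. In the small subunit these are Dap3 (mS29), at 0.08, Ptcd3 (mS39), at −0.19 with an unadjusted p of 0.0434, Chchd1 (mS37), at 0.23, and Aurkaip1 (mS38), at 0.32. In the large subunit they are Gadd45gip1 (mL64), at 0.15, and Ict1 (mL62), the peptidyl-tRNA hydrolase that releases stalled chains, at 0.18. Without Control replicate 1 the values of Aurkaip1, Gadd45gip1 and Ict1 were 0.12, 0.08 and 0.04. Mrp63, the older symbol of Mrpl57 (mL63) and outside the rule because of that spelling, was at −0.06, and above 0 without Control replicate 3 (0.02) or Prmt1-null replicate 1 (0.05). Control libraries of Ptcd3 had 2927, 2725 and 2346 and Prmt1-null libraries 2253, 2457 and 2295 normalized counts, with overlap.

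Deviations of single libraries show how the small shift was spread. For each member, the log2 CPM of a library was set against the gene's mean over the 6 libraries. The median deviation of the Mrpl genes was −0.108, −0.052 and −0.006 in the Control and 0.027, 0.026 and 0.081 in the Prmt1-null libraries. That of the Mrps genes was −0.067, −0.068 and −0.035 in Control and 0.0, 0.051 and 0.084 in Prmt1-null libraries. Both subunits thus had all 3 Prmt1-null medians above all 3 Control medians. The most members had their highest value in Prmt1-null replicate 3 (27 of 76) and their lowest in Control replicate 1 (31 of 76).

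**Figure D3:**
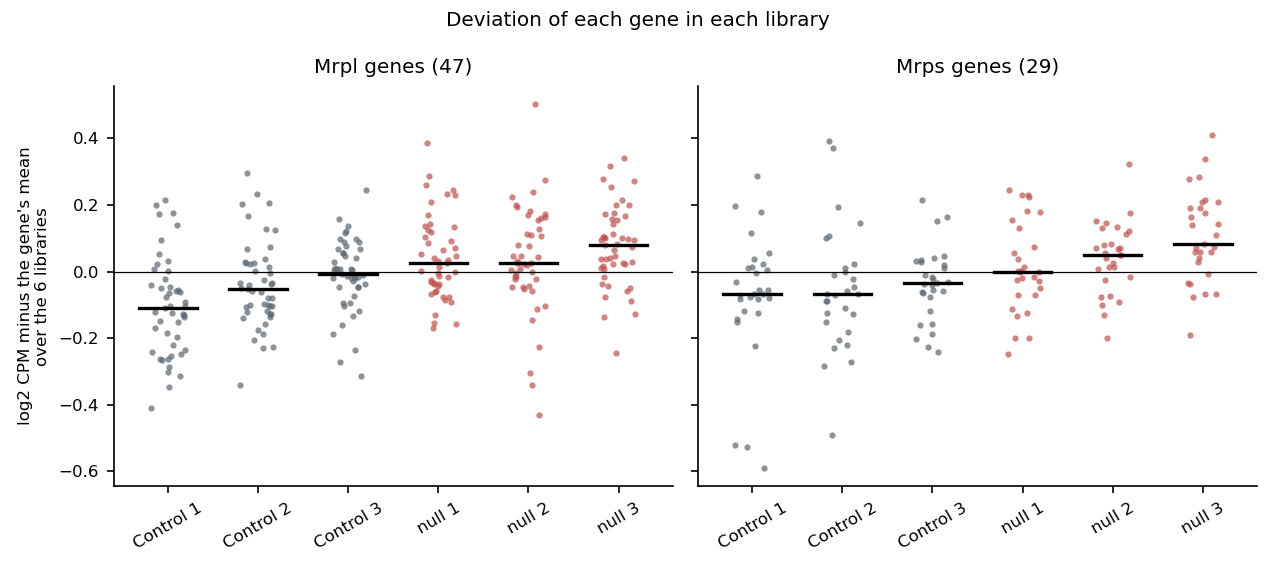
Deviation of each member's log2 CPM from its mean over the 6 libraries, by library, for the Mrpl genes and the Mrps genes; each point is a gene and the black bar is the median. The bars lie between −0.108 and −0.006 in Control and between 0.0 and 0.084 in Prmt1-null libraries, while single genes scatter more widely.

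Members made up 0.167%, 0.168% and 0.169% of all counts in Control and 0.172%, 0.177% and 0.184% in Prmt1-null libraries. Summed Mrpl levels were 1023, 1051 and 1069 CPM in Control and 1098, 1125 and 1136 in Prmt1-null libraries. Summed Mrps levels were 637.1, 617.6 and 629.3 CPM in Control and 646.5, 660.3 and 677 in Prmt1-null libraries. Neither sum overlapped between the groups. The share of counts from the mitochondrial genome varied much more and overlapped, with 3.51%, 2.74% and 1.96% in Control and 3.26%, 2.93% and 1.95% in Prmt1-null libraries.

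Levels were compared between genes as RPKM, normalized CPM divided by the length in kilobases of all annotated exons of the gene. The Mrpl median was 8.48 RPKM and the Mrps median 5.74 RPKM. Mrpl34 (bL34m), a very short protein, had the highest level, 74.0 RPKM, followed by Mrpl12 at 25.4 and Mrpl41 (mL41) at 23.6. In the small subunit Mrps21 was highest at 28.6 RPKM, followed by Mrps7 (uS7m, a protein of the head near the tRNA exit) at 21.1 and Mrps23 (mS23) at 18.0. Mrpl34 did not differ between the groups beyond its spread, with 2092, 2512 and 2673 normalized counts in Control iGBs and 2400, 2778 and 2390 in Prmt1-null libraries (log2 fold change 0.06, 95% interval −0.15 to 0.26).

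Of the other abundant members, Mrpl41 and Mrps23 also stayed close to no change, Mrps7 was slightly higher, and Mrpl12 and Mrps21 are given above. Normalized counts were 1144 ± 63.8 in Control and 1166 ± 104 in Prmt1-null libraries for Mrpl41 (SD, n = 3; log2 fold change 0.03, 95% interval −0.20 to 0.25). Mrps23 had 1485, 1763 and 1531 against 1527, 1463 and 1502 normalized counts, with overlap and a log2 fold change of −0.09 (95% interval −0.29 to 0.11). Mrps7 had 2357, 2374 and 2222 against 2537, 2453 and 2533 normalized counts, with no overlap and a log2 fold change of 0.11 (SE 0.07, edgeR adjusted p = 0.521).

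**Figure D4:**
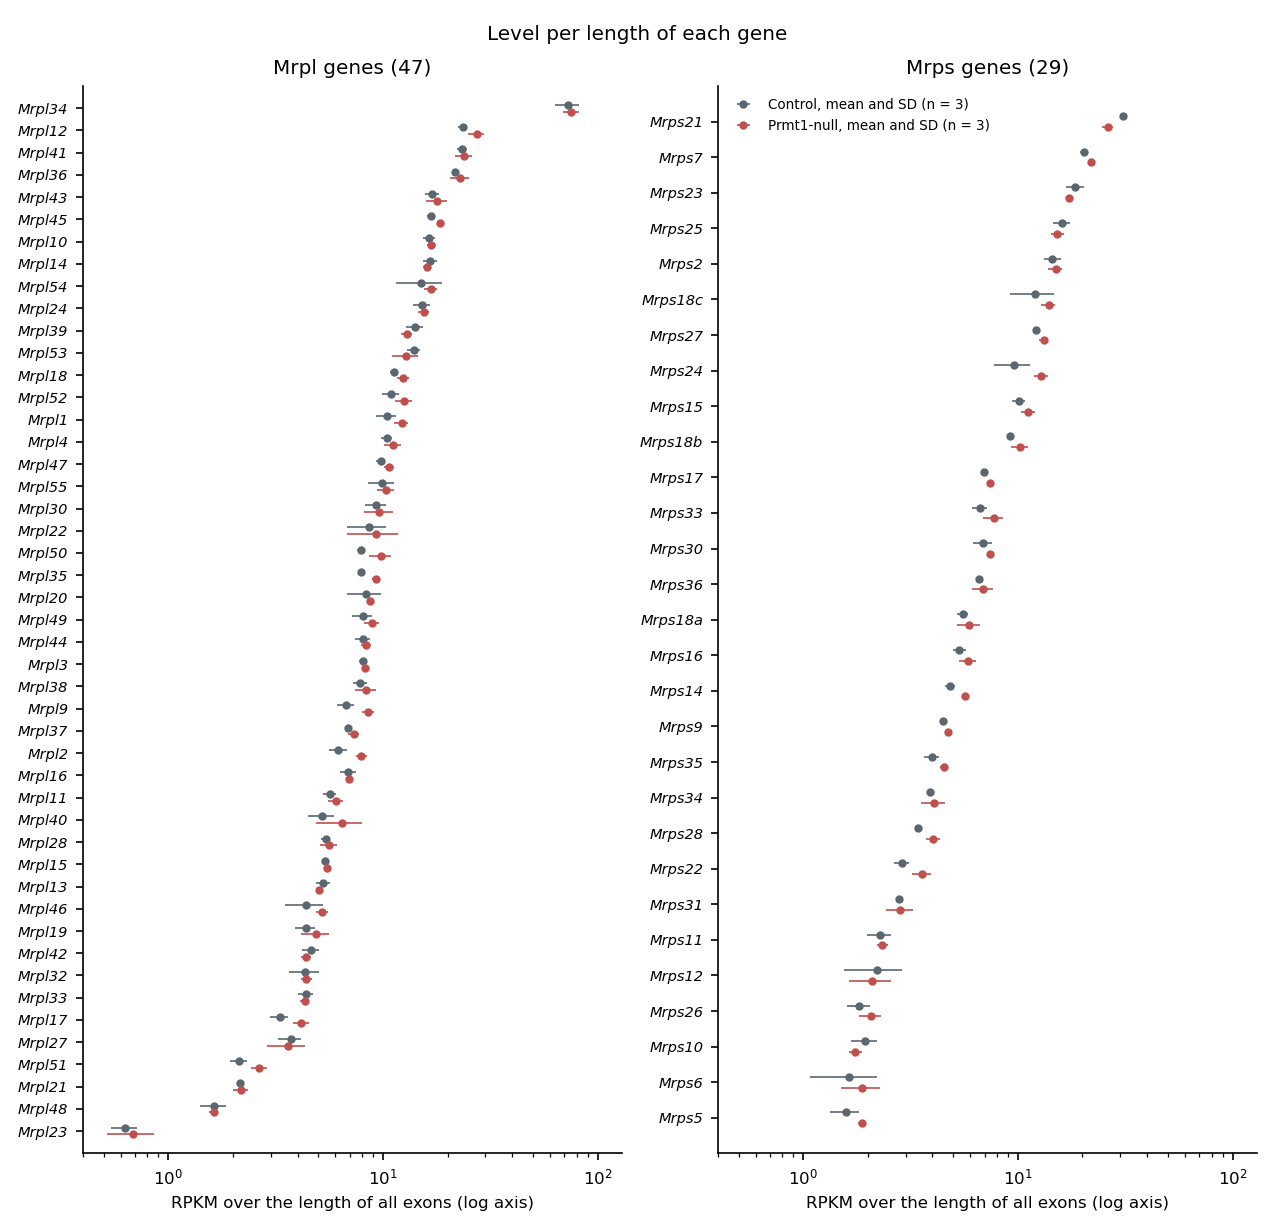
Level of each member in RPKM over the length of all exons, on a log axis, as mean and SD of the 3 Control (grey) and 3 Prmt1-null (red) libraries. Levels span from 0.657 (Mrpl23) to 74.0 (Mrpl34) in the large subunit and from 1.73 (Mrps5) to 28.6 (Mrps21) in the small subunit, and the distance between the groups is small beside this range.

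Genes whose proteins share a particle thus had transcript levels that spanned 113-fold among Mrpl and 16.5-fold among Mrps genes. The order depends in part on the length used and on copies of a gene. Taken over the longest transcript instead of all exons, the highest large subunit levels were those of Mrpl34, Mrpl12 and Mrpl36, the lowest Mrpl level was still that of Mrpl23, and the lowest Mrps level was that of Mrps26, at 1.98 RPKM, instead of Mrps5. Mrpl23 had 170 normalized counts in Control libraries, whereas Mrpl23-ps1, left out by the rule, had 717. In all, 17 members have a pseudogene copy (95% identity over at least 200 bases, or by symbol). The median log2 fold change of these was 0.062, and it was 0.097 for the 59 members without a copy. Exons of 32 members overlap another gene, for 27 of them on the other strand, and the strand setting of the counting is not given in the sources used here. The median was 0.089 for these 32 and 0.093 for the 44 members without overlap.

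Genes that act with the mitochondrial ribosome were compared as lists, in which edgeR called 0 nuclear genes and 2 tRNA genes of the mitochondrial genome. The assembly and rRNA modification factors had a median log2 fold change of 0.031 over 28 genes, with 17 above 0. The 1 gene at an unadjusted p under 0.05 was C1qbp, a matrix protein (0.21, unadjusted p = 0.0183). The 16 mitochondrial translation factors had a median of 0.077 with 10 above 0 and 3 at an unadjusted p under 0.05 in either direction (18.8%), where 13.5% of all genes tested were. Tufm, the elongation factor EF-Tu that brings aminoacyl-tRNA to the ribosome, had 875.5, 870.1 and 942.9 normalized counts in Control iGBs and 1170, 1144 and 1121 in Prmt1-null libraries (log2 fold change 0.35, SE 0.0985, edgeR adjusted p = 0.109), with no overlap, and DESeq2 called it. Gfm2, an elongation factor G that takes ribosomes apart, was at −0.14 (unadjusted p = 0.0295), and Mtrf1l, a release factor, was at 0.33 (unadjusted p = 0.0498).

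The 19 mitochondrial aminoacyl-tRNA synthetases had a median of −0.015, with 7 above 0 and 3 at an unadjusted p under 0.05 (15.8%), also near the share of all genes. Cars2 (cysteine) was at 0.36 and Wars2 (tryptophan) at 0.30, both with an unadjusted p under 0.05. Mitochondrial transcription and RNA processing genes had a median of 0.009 over 13 genes with 1 at an unadjusted p under 0.05, Elac2, the nuclease that trims the 3′ ends of tRNAs, at 0.20 (unadjusted p = 0.0313). The rRNAs of the particle, mt-Rnr1 and mt-Rnr2, were at −0.05 (95% interval −0.39 to 0.29) and −0.15 (−0.50 to 0.20), in libraries from which rRNA had been depleted. The 13 protein-coding genes of the mitochondrial genome had a median of −0.022, with 6 above 0, 0 called by edgeR or DESeq2 and 0 at an unadjusted p under 0.05. Without the filter on low counts, the genes edgeR called included mt-Co2 and Lars2, the synthetase for leucine. With the filter, where neither was called, their log2 fold changes were −0.27 and −0.33.

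Transfer RNAs of the mitochondrial genome carry the amino acids to this ribosome. Of their 22 genes 19 were tested, with a median log2 fold change of −0.139, 8 above 0 and 2 called lower by edgeR, mt-Tn (tRNA for asparagine) and mt-Tc (cysteine), where 1.18% of all genes tested were called in either direction. Normalized counts of mt-Tn were 3971, 3583 and 3661 in Control iGBs and 3035, 2892 and 2954 in Prmt1-null libraries (log2 fold change −0.34, SE 0.0653, edgeR adjusted p = 0.0268). Those of mt-Tc were 4585, 4327 and 4352 against 3546, 3798 and 3519 (log2 fold change −0.29, SE 0.061, edgeR adjusted p = 0.0387). In both genes every Prmt1-null library lay below every Control library. DESeq2 also called mt-Ta (alanine, −0.30) and mt-Ty (tyrosine, −0.28), which edgeR did not with the filter on low counts (adjusted p = 0.0978 and 0.0908), while without it edgeR called mt-Ty (adjusted p = 0.0342). These 4 genes are neighbours on the minus strand of the mitochondrial genome, between positions 5018 and 5326 (GRCm38), and each is 66 to 71 bases long. Whether their reads came from mature tRNAs was not tested, and the strand setting of the counting is not given. With trends in GC content and length removed, both calls were lost (log2 fold change −0.26 and −0.22, edgeR adjusted p = 0.0671 and 0.082). With each library left out in turn, both calls held only without Control replicate 3, and without any other library the edgeR adjusted p was 0.0686 to 0.172 for mt-Tn and 0.0887 to 0.184 for mt-Tc.

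**Figure D5:**
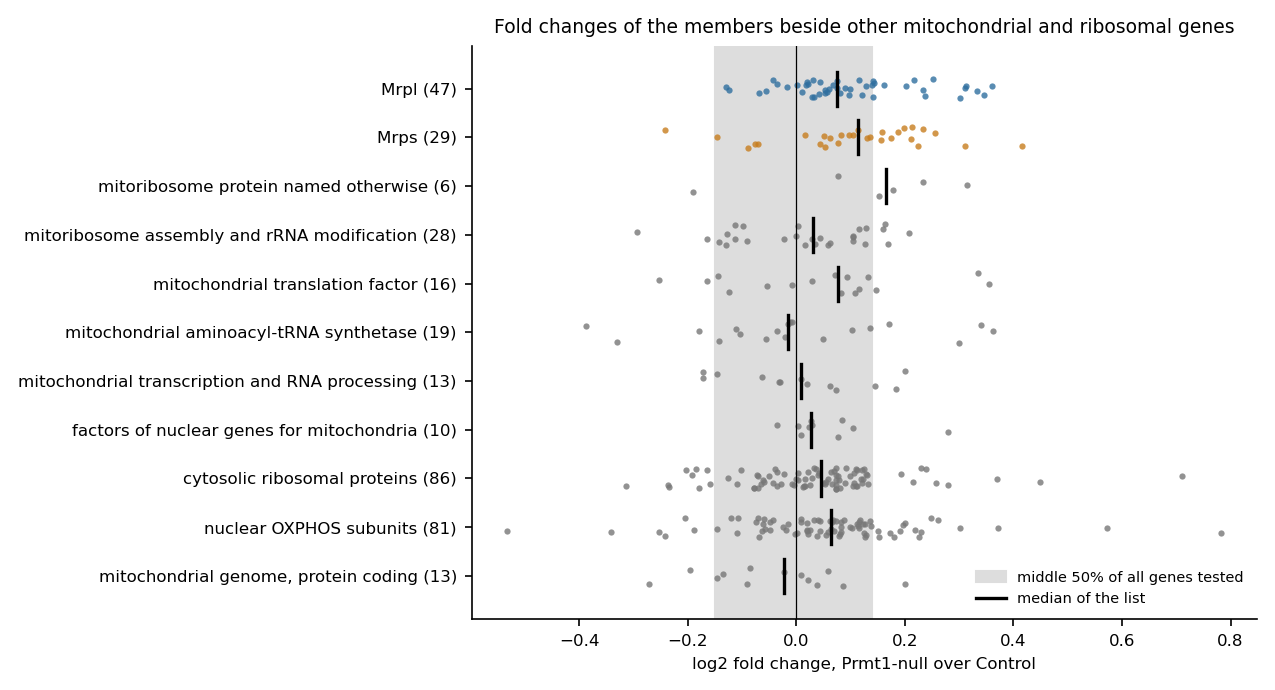
Log2 fold change of each gene, Prmt1-null over Control, in the Mrpl and Mrps genes and in lists of other mitochondrial and ribosomal genes (number of genes tested in brackets); black bars are medians and the grey band is the middle 50% of all genes tested. Medians run from −0.022 (mitochondrial genome, protein coding) to 0.165 (mitochondrial ribosome proteins named otherwise), and the band shows the spread of single genes, not of list medians.

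Larger families were set beside the members. Cytosolic ribosomal proteins had a median log2 fold change of 0.046 over 86 genes, with 56 above 0 and 2 called higher by edgeR, Rpl27a and Rpl15, where 1.18% of all genes tested were called. DESeq2 also called Rpl3 (3 in all), and without the filter on low counts edgeR called 5, with Rplp1, Rpl23 and Rpl3. With each library left out in turn, the call of Rpl15 held in every fit (edgeR adjusted p 0.00618 to 0.0471), and that of Rpl27a held only without Control replicate 3 (0.0735 to 0.153 without any other library). Nuclear-encoded subunits of the respiratory chain and ATP synthase had a median of 0.064 over 81 genes, with 57 above 0 and 1 called higher by edgeR, Atp5g1, which held only without Control replicate 1 (edgeR adjusted p 0.0696 to 0.197 without any other library). DESeq2 called 2, Atp5g1 and Ndufs4. The share of genes above 0 was 84.2% in the members, 65.1% in the cytosolic ribosome and 70.4% in the respiratory chain, and the difference between these families was not tested.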

How the data were processed

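RNA-seq of iGBs from 3 Control and 3 Prmt1-null mice, with 1 library per mouse, was used. Groups, replicate numbers and sex were taken from the sample labels. The authors trimmed, aligned and counted the reads and deposited raw counts per gene, not normalized; the submitters' processing notes name Trimmomatic 0.32, STAR 2.3.0e and featureCounts 1.4.4, and the methods give mm10, Ensembl exons and primary alignments to at most 2 locations. The strand setting of the counting is not given in the sources used here.

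Testing used edgeR 4.0.16 under R 4.3.3. Chromosome Y genes (398) were dropped, as in the study's methods. Of the steps chosen here, filterByExpr (minimum count 10) left 18268 genes, TMM factors ran from 0.9855 to 1.013, and glmQLFit and glmQLFTest were used with Benjamini-Hochberg adjustment over all genes tested. The biological coefficient of variation was 0.154. A gene was called if its adjusted p was under 0.05 and its normalized counts averaged over 100. The study's methods name DESeq2, which was used here (1.42.0) as an alternative, together with limma-voom (limma 3.58.1), size factors by the median of ratios, the replicate number as a block, sex as a covariate, no filter on low counts, chromosome Y genes kept, trends with GC content and length removed, no minimum mean count, subunits placed by structure, members without exon overlap, and each library left out in turn. Adding the counts of pseudogene copies (BLAST 2.17.0) and lengths by the longest transcript were added after seeing the data. Log2 CPM used a prior count of 2. Gene positions, overlaps and lengths came from GENCODE M21 on GRCm38, with 75 members matched by ID and 1 (Mrpl33) by symbol. The scripts were tested on simulated data.

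With totals of 45343250 to 62774232, 3 counts in a library equal 0.0478 to 0.0662 CPM, which covers counting error only, since the reads carry no molecular identifiers. With 3 against 3 libraries, 20 arrangements are possible. The members and the gene lists were chosen with earlier results of these data known. Named members are those with the 12 smallest p-values, the 3 highest levels per length and the extreme fold changes in each subunit, and those whose symbol and place differ; the other members were named after their values were seen. Other genes are the proteins of the ribosome named otherwise, and pathway and mitochondrial tRNA genes with an unadjusted p under 0.05 or a call, which were named after their values were seen. The result for 1 gene of the synthetase list is not reported here.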

Additional observations from a re-analysis of the deposited data

How the results depend on the processing

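The median log2 fold changes of both subunits stayed above 0 under every alternative run, between 0.062 (GC content and length trends removed) and 0.111 for Mrpl genes and between 0.083 and 0.137 for Mrps genes, the ends other than 0.062 coming from leaving out a library. Counts of called members were 0 in both directions in each of these fits, except that DESeq2 called 2 Mrpl and 1 Mrps genes higher and edgeR without the filter on low counts called 1 Mrpl and 1 Mrps gene higher; the cause was not tested. With each library left out in turn, 0 Mrpl and 0 Mrps genes were called higher or lower, and 55 to 63 of the 76 members were above 0. Of the 64 members above 0 with all libraries, 42 were above 0 in each of these fits. Of the members named by the rule, 4 had a direction that depended on a library. With each library left out in turn, Mrpl34 ran from −0.04 (without Control replicate 1; −0.01 without Prmt1-null replicate 2) to 0.13, Mrpl41 from −0.02 (without Control replicate 2 or Prmt1-null replicate 2) to 0.10, Mrps18a from −0.005 (without Prmt1-null replicate 1) to 0.17, and Mrps36 from −0.04 (without Prmt1-null replicate 3) to 0.12. Of the members named after their values were seen, Mrps25 ran from −0.12 to 0.01 (without Control replicate 1) and Mrps34 from −0.06 (without Prmt1-null replicate 1) to 0.11.

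Replicate numbers are shared by the groups, and the sample labels do not say whether same-numbered libraries belong together. Deviations of same-numbered libraries correlated at −0.0747, 0.0445 and −0.0775. With the replicate number as a block, 151 genes were called instead of 216, of the members 0 were, and the medians were 0.08 (Mrpl) and 0.114 (Mrps). The edgeR adjusted p was then 0.0414 for mt-Tn and 0.0668 for mt-Tc, 0.0119 for Rpl15, 0.0541 for Rpl27a, 0.0757 for Atp5g1, 0.0529 for Ncapd2 and 0.0648 for Eme2. The counts of Mrps12 (69 in its lowest library) and Mrps6 (79) were low, their 95% intervals ran from −0.67 to 0.52 and from −0.37 to 0.77, and the part of depth in this width was not tested.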

Other observations

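Start sites of 25 members (32.9%) lie head to head with another gene, within 1000 bases before to 500 bases inside its start, against 14.4% of the 13052 tested protein-coding genes. They form 24 pairs, since Mrpl46 and Mrps11 are neighbours of each other. In 17 of the 24 pairs both genes had a fold change of the same sign, and this number was not tested. Among the neighbours 2 were called by edgeR, where 1.18% of all genes tested were. Ncapd2, a condensin subunit 100 bases from Mrpl51, had 11760, 12500 and 12690 normalized counts in Control and 9717, 9932 and 10480 in Prmt1-null libraries, a log2 fold change of −0.29 (SE 0.06, edgeR adjusted p = 0.033), where that of Mrpl51 was 0.31. Eme2, a nuclease partner of MUS81 29 bases from Mrps34, had 1161, 1283 and 1485 against 1770, 1844 and 1801 normalized counts, a log2 fold change of 0.46 (SE 0.1, edgeR adjusted p = 0.0413), where that of Mrps34 was 0.05 (95% interval −0.24 to 0.34). With each library left out in turn, the call of Ncapd2 stayed without Control replicate 1 or 3 and was lost without any other library (edgeR adjusted p 0.0695 to 0.2), and that of Eme2 stayed only without Control replicate 3 and was otherwise lost (0.0887 to 0.197). With chromosome Y genes kept, the edgeR adjusted p of Eme2 was 0.0537. Exons of Mrps34 overlap Nme3 and Mapk8ip3. Those of Eme2 overlap Mapk8ip3 on the same strand and Spsb3 on the other strand. Exons of Ncapd2 overlap Gm28967 and Scarna10 on the same strand. Reads of the shared parts could belong to either gene. Fau, a ribosomal fusion gene 59 bases from Mrpl49, was at −0.18 (unadjusted p = 0.0174), and Mrpl49 at 0.14. Except for Mrpl51, which the naming rule covers, the genes of these 3 pairs were named after their values were seen.

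Same-numbered libraries had close shares of counts from the mitochondrial genome, 3.51% and 3.26% for replicate 1, 2.74% and 2.93% for replicate 2, and 1.96% and 1.95% for replicate 3. Normalized counts of mt-Co1, the catalytic subunit of cytochrome oxidase, were 564100, 470700 and 355000 in Control and 589800, 526600 and 330800 in Prmt1-null libraries. The median deviations of all 76 members in the same libraries were −0.077, −0.059 and −0.016 in Control and 0.003, 0.037 and 0.081 in Prmt1-null libraries, so replicate 3 had the highest of each group. The cause of these likenesses between same-numbered libraries was not tested.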
